A study of Mus musculus with 60 samples.

Results

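The NMDA (N-methyl-D-aspartate) receptor subunit genes Grin1, Grin2a, Grin2b, Grin2c, Grin2d and Grin3a were followed in mouse cortical cultures, E15 cortex and mouse hippocampus. They are 6 of the 39756 genes in the culture table and 6 of the 19924 genes with at least 1 read in the hippocampus and were chosen by name. Grin3b, the remaining gene of the family, was measured alongside them.

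NMDA receptors are glutamate-gated channels that admit calcium when glutamate and a co-agonist, glycine or D-serine, are bound and depolarization has lifted the block by magnesium. Each receptor contains GluN1, the obligatory subunit encoded by Grin1, combined with glutamate-binding GluN2 subunits (Grin2a to Grin2d) or glycine-binding GluN3 subunits (Grin3a and Grin3b). In the forebrain GluN2B is known to be abundant around birth and GluN2A to join it postnatally, and this exchange shortens the synaptic current and is a textbook marker of synapse maturation. GluN2D is known from early development and from interneurons, GluN2C chiefly from cerebellar granule cells and from some glia, and GluN3A from juvenile synapses.

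The 46 culture libraries came from wild-type cortical cells that received paxillin siRNA or scrambled (SC) siRNA at 2 DIV (days in vitro), alone or together with 20 ng/ml of BDNF (brain-derived neurotrophic factor). Collection was on DIV3, on DIV5 or on DIV10. For SC, SC with BDNF, paxillin siRNA, and paxillin siRNA with BDNF there were 3, 3, 5 and 4 libraries at DIV3, then 4, 4, 6 and 5 at DIV5, and 3, 3, 4 and 2 at DIV10. A further 2 libraries came from E15 cortex, labelled DIV0. The sources differ on the embryos, since the labels give E18 mouse, the methods give E18 rat for primary neurons, and a legend of the study gives E15 mouse for the sequenced cultures; the reads were aligned to mouse and the libraries are taken as mouse here. The 12 hippocampus libraries, 2 per genotype at each of P10, P15 and P21, came from mice labelled paxillin KO with a paxillin-S119A knock-in (called S119A here) and from controls labelled WT. According to the methods the S119A animals carried Nestin-CreERT2, 1 floxed paxillin allele and 1 stop-floxed S119A allele, so that recombination occurs in neural lineage cells and leaves the mutant allele, and control littermates received the same 3 doses of tamoxifen from P5. A legend of the study for these hippocampus reads gives the controls as carrying both altered paxillin alleles without Cre. The controls labelled WT are therefore described there as lacking Cre and not as wild type at paxillin. The cultures of a group are described as independent. The same legend gives the unit of the hippocampus data as hippocampi, 2 at each time point. No source states that they are from separate mice. Their p-values measure the spread between libraries, which may not be the spread between animals.

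Pxn, the gene targeted by the siRNA, was called lower with paxillin siRNA only at DIV5 without BDNF. There it lay between 12.4 and 19.9 TPM with SC siRNA and between 8.43 and 9.83 TPM with paxillin siRNA, a log2 difference of -0.67 ± 0.18 (SE, adjusted p = 0.0186 by limma). At DIV5 with BDNF the difference was -0.42 ± 0.18 (adjusted p = 0.207). The DIV5 groups without BDNF also differed in glial markers. Summed astrocyte markers were 1204 to 8236 TPM (median 5526) with SC siRNA and 1013 to 1966 TPM (median 1389) with paxillin siRNA. Summed oligodendrocyte precursor markers were 415 to 5226 TPM (median 3955) and 369 to 837 TPM (median 749). Their part in the Pxn difference was not tested. At DIV3 Pxn was 9.16 to 11.7 TPM with SC siRNA and 7.79 to 11.4 TPM with paxillin siRNA, and at DIV10 it was 8.99 to 19.9 and 11.5 to 18.8 TPM. The libraries are therefore called by their label only. All 9 astrocyte markers, 6 of 6 tested oligodendrocyte markers and 5 of 5 tested microglial markers rose from DIV3 to DIV10, so these are mixed cultures, and the summed astrocyte markers were 207 to 962 TPM at DIV3 and 940 to 8719 TPM at DIV10. Of the 12 DIV10 libraries, 4 held 1.28 to 9.51 TPM of the dividing cell marker Mki67 (paxillin siRNA 1 and 2, SC 3, and SC with BDNF 3), against 59.5 to 111 TPM in the other 8; these 4 are named wherever they decide a value. In the hippocampus the 4 libraries numbered 2 at P15 and P21 stood apart. They held 9 to 17 reads of the neuronal gene Rbfox3 against 383 to 575 in the other 8. The summed neuron markers showed no such gap. Over all P15 and P21 libraries, these 4 included, they were 8578 to 10118 CPM (reads scaled to library depth). At P10 they were 10271 to 10567 CPM. Summed excitatory neuron markers were 2870 to 4757 CPM at P15 and P21 and 2458 to 2902 CPM at P10. Why Rbfox3 was low in the 4 libraries was not tested. Depth was 3162777 to 5687908 reads per hippocampus library, and the TPM of the cultures hold no depth per library.

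All 6 genes are multi-exon genes placed on GRCm38.p6 by RefSeq. Grin1 lies on chromosome 2 (25291177 to 25319187), Grin2a on chromosome 16 (9567901 to 9996083) and Grin2b on chromosome 6 (135713221 to 136173615). Grin2c lies on chromosome 11 (115249169 to 115267297), Grin2d on chromosome 7 (45831883 to 45871194) and Grin3a on chromosome 4 (49661611 to 49846023). Grin1os, an antisense transcript, overlaps Grin1 (chromosome 2, 25291258 to 25298660), and the counting is not stated to use strand. Whether reads from this overlap were told apart by strand is therefore not known.

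The coding sequences differ in base composition, from 50.8% G and C in Grin2a, 51.1% in Grin3a, 52.9% in Grin2b and 55.6% in Grin1 to 62.4% in Grin2c and 67.3% in Grin2d. Because Grin2c and Grin2d were also nearly absent from the 4 hippocampus libraries that stood apart, the 60 coding bases richest in G and C within 1 exon are shown for each gene, read from the GENCODE transcripts of GRCm38 and written 5′ to 3′ along the coding strand, which is the minus strand for all 6. Capitals mark runs of at least 5 G or C.
Grin2d, exon 1, chr7:45866426-45866485, 91.7% G and C: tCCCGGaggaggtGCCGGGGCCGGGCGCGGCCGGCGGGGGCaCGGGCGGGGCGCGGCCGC
Grin2c, exon 15, chr11:115250366-115250425, 88.3%: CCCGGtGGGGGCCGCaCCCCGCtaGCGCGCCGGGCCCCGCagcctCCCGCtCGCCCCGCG
Grin3a, exon 1, chr4:49844729-49844788, 81.7%: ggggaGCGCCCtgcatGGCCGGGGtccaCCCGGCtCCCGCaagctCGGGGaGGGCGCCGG
Grin2a, exon 3, chr16:9992439-9992498, 73.3%: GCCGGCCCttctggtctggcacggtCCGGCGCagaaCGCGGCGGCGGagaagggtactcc
Grin1, exon 3, chr2:25313438-25313497, 70%: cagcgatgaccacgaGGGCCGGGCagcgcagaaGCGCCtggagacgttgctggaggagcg
Grin2b, exon 4, chr6:135923053-135923112, 68.3%: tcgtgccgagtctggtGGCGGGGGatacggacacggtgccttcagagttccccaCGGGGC
The windows of Grin2d and Grin2c are almost unbroken capitals, whereas those of Grin1, Grin2a and Grin2b hold short runs between stretches of mixed sequence. The same windows are referred to with the hippocampus reads.

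In the cultures Grin1 was the highest member in every library on the TPM scale, which is per transcript length. Grin2b and Grin2d followed by group mean, and Grin2a, Grin2c and Grin3a were lower. In the SC libraries at DIV3 without BDNF, Grin1 measured 128 ± 29.6 TPM, Grin2b 26.1 ± 2.00, Grin2d 10.9 ± 4.33, Grin3a 3.28 ± 1.38, Grin2c 2.01 ± 1.11 and Grin2a 1.59 ± 0.215 TPM (SD, n = 3). In bulk RNA a change in the number of cells of a type and a change in RNA per cell cannot be told apart, and this holds for all results that follow.

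**Figure D1:**
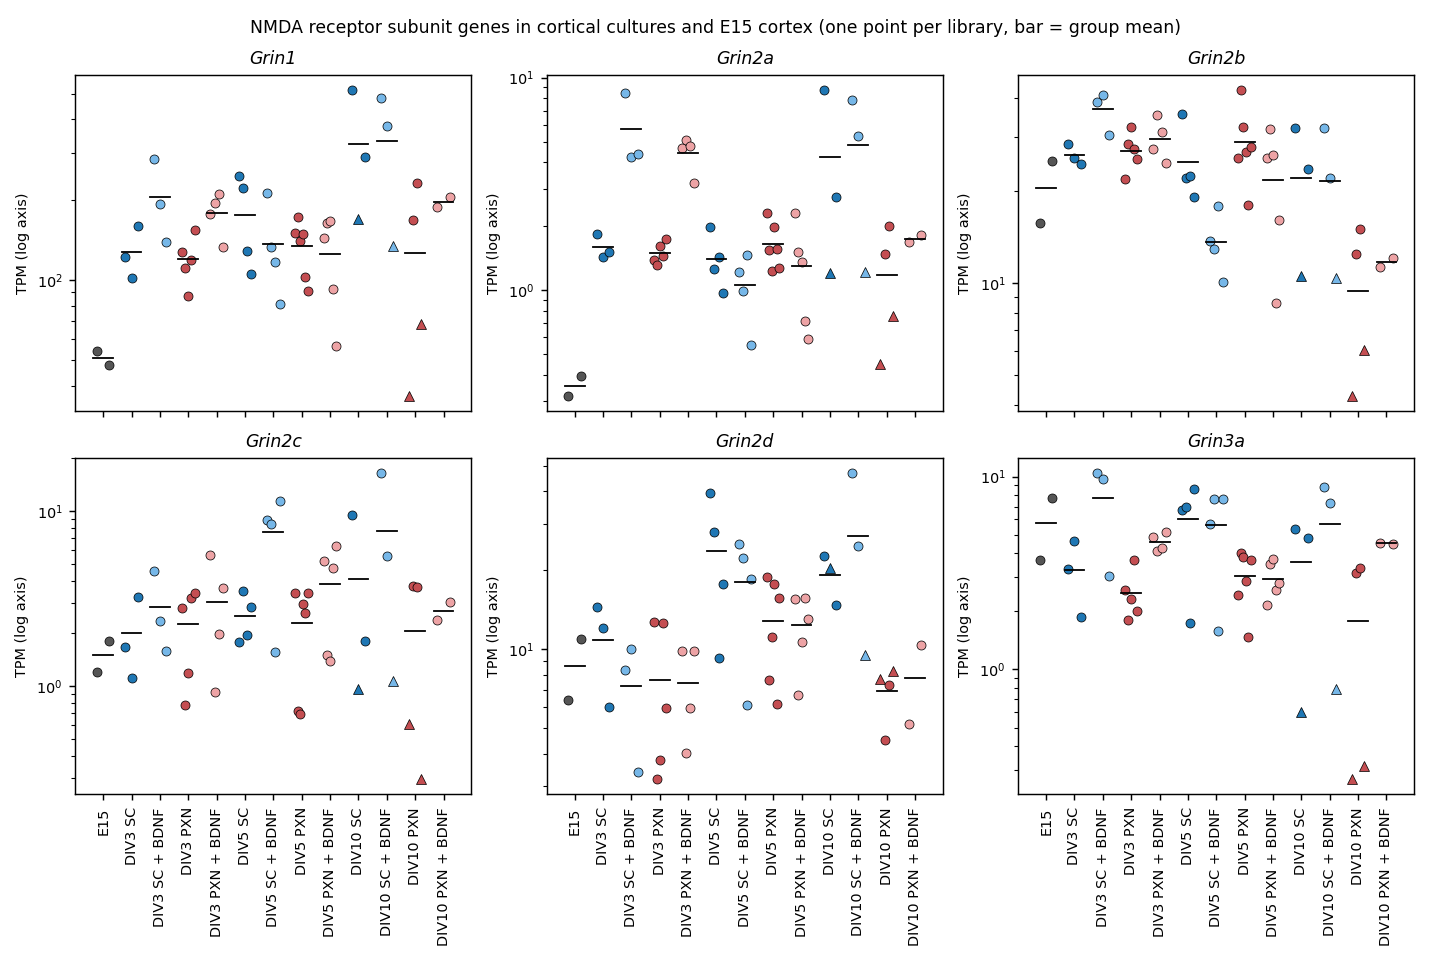
Levels of the 6 NMDA receptor subunit genes in TPM (log axis) in the E15 and culture libraries, 1 point per library, grouped by day and arm, with the mean of each group as a black bar. Dark and light blue are SC siRNA without and with BDNF, dark and light red are paxillin siRNA without and with BDNF, and triangles are the 4 DIV10 libraries with less than 10 TPM of Mki67; Grin3a lies at 0.270 to 0.793 TPM in those 4 and at 3.17 to 8.82 TPM in the other 8.

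Over the days in vitro the glutamate-binding subunits moved in different directions. From DIV3 to DIV5, averaged over the 4 arms, Grin2a and Grin2b fell and Grin2d rose, and from DIV5 to DIV10 Grin1 and Grin2a rose while Grin2b fell again. Thus 3 of 6 members were called in the first step, against 39.1% of all 14250 genes tested, and 3 of 6 in the second, against 55.9%. From DIV3 to DIV10 as a whole Grin2b fell and Grin2d rose, 2 of 6 members, in a comparison that called 68% of all genes; the members' median log2 change, with Grin3b, was -0.19 beside -0.07 for all genes. The share of members called was thus near or below that of all genes. These averages hide differences between arms, and the falls of Grin2a and Grin2b from DIV3 to DIV5 are given by arm below. With paxillin siRNA and no BDNF, Grin1 was 91.1 to 172 TPM at DIV5 and 36.7 to 231 TPM at DIV10. Grin2a in this arm was 1.23 to 2.32 and 0.448 to 2.01 TPM. Both low ends at DIV10 are paxillin siRNA 1, a library of low Mki67.

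Grin1, the obligatory subunit, was lowest by group mean in E15 cortex, at 53.9 and 47.9 TPM. In SC libraries without BDNF it measured 122, 101 and 160 TPM at DIV3, then 245, 220, 128 and 105 TPM at DIV5, and 517, 169 and 289 TPM at DIV10. The DIV3 and DIV5 ranges overlapped, and at DIV10 all 3 libraries were above the DIV3 range. With the 4 arms together the lowest, median and highest library were 86.8, 138 and 284 TPM at DIV3, 56.6, 140 and 245 TPM at DIV5, and 36.7, 196 and 517 TPM at DIV10. The step from DIV5 to DIV10 was 0.59 ± 0.22 in log2 (SE, adjusted p = 0.0232 by limma). It missed the threshold without any of 3 single DIV10 libraries, with adjusted p = 0.0528 without paxillin siRNA with BDNF 11, 0.0652 without SC 1 and 0.0603 without SC with BDNF 1. With only the groups compared the adjusted p was 0.0547, and with a term for the series of library numbers the step was 0.37 (adjusted p = 0.116). Without the 4 DIV10 libraries of low Mki67, which include the lowest values (36.7 and 68.3 TPM), the change from DIV3 to DIV10 was 0.91 ± 0.19 (adjusted p = 7.9e-05) in place of 0.42 (adjusted p = 0.108).

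Ordered by the group mean of Grin1, E15 (50.9 TPM) stood below paxillin siRNA at DIV3 (86.8 to 154 TPM) with no overlap, and SC at DIV10 (325 TPM) and SC with BDNF at DIV10 (331 TPM) stood at the top. Each pair of neighbours between DIV3 paxillin siRNA and the top overlapped in their libraries. From E15 to SC at DIV3 the log2 difference of Grin1 was 1.29 ± 0.54 (adjusted p = 0.132), and 0 of 6 members were called in that comparison, against 8.11% of all genes; at an unadjusted p under 0.05 there were 2, Grin1 and Grin2a. Those 2 passed after adjustment when only these groups were compared (adjusted p = 0.0273 and 0.0353).

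Grin2a, which encodes the GluN2A subunit of maturing synapses, was nearly silent in E15 cortex, at 0.319 and 0.393 TPM. In SC libraries without BDNF it was 1.84, 1.43 and 1.51 TPM at DIV3, 1.98, 1.25, 1.43 and 0.973 TPM at DIV5, and 8.76, 1.204 and 2.76 TPM at DIV10. Both E15 libraries were below every culture library, and at DIV10 a single SC library, number 1, was far above the other two. Over the 4 arms Grin2a fell from DIV3 to DIV5 by 0.75 ± 0.16 in log2 (adjusted p = 2.2e-04) and rose from DIV5 to DIV10 by 0.53 ± 0.17 (adjusted p = 0.0071). The net difference from DIV3 to DIV10 was -0.21 and was not called. The DIV3 level that this compares with includes the BDNF libraries, which stood high on that day as described further on. The fall to DIV5 was seen in the BDNF arms. With BDNF the libraries lay between 3.21 and 8.49 TPM at DIV3 and between 0.549 and 2.30 TPM at DIV5, with no overlap. Without BDNF they lay between 1.31 and 1.84 TPM at DIV3 and between 0.973 and 2.32 TPM at DIV5.

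Grin2b, which encodes the GluN2B subunit of immature receptors, was 15.7 and 25.0 TPM in E15 cortex. In SC libraries without BDNF it was 28.3, 25.6 and 24.4 TPM at DIV3, 35.5, 21.99, 22.3 and 19.1 TPM at DIV5, and 32.1, 10.6 and 23.5 TPM at DIV10. Within this arm the 3 days overlapped, but over the 4 arms the median library went from 28.3 TPM at DIV3 to 22.3 at DIV5 and 12.2 at DIV10. Averaged over the arms, Grin2b fell by 0.50 ± 0.17 in log2 from DIV3 to DIV5 (adjusted p = 0.0158), by 0.51 ± 0.18 from DIV5 to DIV10 (adjusted p = 0.0136) and by 1.01 ± 0.19 over the whole time (adjusted p = 1.2e-05). The fall to DIV5 was seen with BDNF. In SC with BDNF the libraries lay between 30.4 and 41.1 TPM at DIV3 and between 10.0 and 17.8 TPM at DIV5. With paxillin siRNA and BDNF the ranges overlapped, at 24.6 to 35.3 and 8.58 to 31.8 TPM. Without BDNF the DIV3 range, 21.8 to 32.3 TPM, lay within the DIV5 range, 18.01 to 42.6 TPM. This step was not tested by arm. Without the 4 DIV10 libraries of low Mki67 the fall from DIV3 to DIV10 was 0.64 ± 0.16 (adjusted p = 6.9e-04), and the step from DIV5 to DIV10 was -0.14 (adjusted p = 0.433); those 4 held 4.29, 6.05, 10.6 and 10.4 TPM of Grin2b. The median of all genes differed by -0.13 between DIV5 and DIV10, and after median ratio rescaling, which brings it to -0.01, this step was -0.39 (adjusted p = 0.0679). The summed excitatory neuron markers were 1356 to 2517 TPM at DIV3 and 454 to 1730 TPM at DIV5, and their part in the Grin2b level was not tested; relative to the neuron markers Grin2b fell by 0.41 from DIV3 to DIV5 (adjusted p = 0.0031).

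Ordered by mean, Grin2a was lowest in E15 (0.356 TPM), lay between 1.05 and 1.74 TPM in 8 culture groups, and lay between 4.24 and 5.71 TPM in the remaining 4, namely both BDNF groups at DIV3 and both SC groups at DIV10. For Grin2b the group means ran from 9.44 TPM with paxillin siRNA at DIV10 to 36.8 TPM in SC with BDNF at DIV3, and all neighbours in this order overlapped.

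The Grin2a to Grin2b ratio, which divides the TPM of the same library and so cancels what both genes share, was lowest before culture. It was 0.0203 and 0.0157 in the 2 E15 libraries. At DIV3 it was 0.0560 to 0.0649 with SC siRNA (n = 3) and 0.0463 to 0.0687 with paxillin siRNA (n = 5), and with BDNF it was 0.103 to 0.218 in SC (n = 3) and 0.130 to 0.170 under paxillin siRNA (n = 4). At DIV3 the BDNF libraries therefore all lay above all libraries without BDNF.

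At DIV5 the ratio was 0.0510 to 0.0638 with SC siRNA (n = 4), 0.0547 to 0.0890 in SC with BDNF (n = 4), 0.0363 to 0.0906 with paxillin siRNA (n = 6) and 0.0365 to 0.0897 with paxillin siRNA and BDNF (n = 5). The 4 arms overlapped fully on this day. At DIV10 it was 0.114, 0.117 and 0.273 with SC siRNA, 0.118, 0.241 and 0.246 in SC with BDNF, 0.104 to 0.134 with paxillin siRNA (n = 4), and 0.148 and 0.150 with paxillin siRNA and BDNF. Every DIV10 library was above every DIV5 library.

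**Figure D2:**
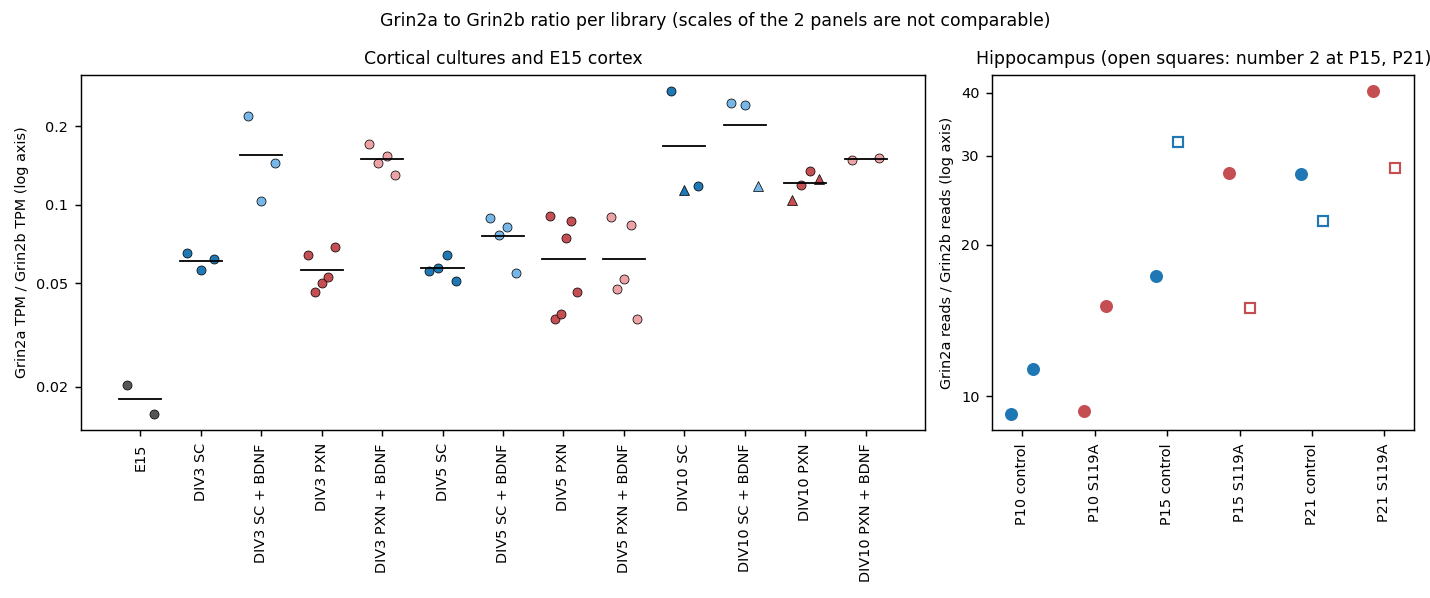
Ratio of Grin2a to Grin2b per library on log axes, from TPM in E15 cortex and the cultures (left) and from reads in the hippocampus at P10, P15 and P21 (right), with culture group means as black bars, triangles for the 4 DIV10 libraries of low Mki67 and open squares for the hippocampus libraries numbered 2 at P15 and P21. The culture ratios run from 0.0157 at E15 to 0.273 at DIV10, and the hippocampus ratios from 9.21 at P10 to 40.4 at P21; the scales differ and the panels are not compared with each other.

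The ratio rose 2.47-fold from DIV5 to DIV10 (1.304 in log2, p = 1e-05, the smallest value that 100000 resamples can give; Benjamini-Hochberg adjusted p = 1.3e-04 over 13 ratio tests, permutation test stratified by arm, 2-sided). From DIV3 to DIV10 it rose 1.63-fold (permutation test, adjusted p = 0.0027). That rise was seen without BDNF, where the ratio was 0.0463 to 0.0687 at DIV3 and 0.104 to 0.273 at DIV10. With BDNF the ranges overlapped, at 0.103 to 0.218 on DIV3 and 0.118 to 0.246 on DIV10. The change from DIV3 to DIV10 was not tested by arm. From DIV3 to DIV5 the ratio fell by 0.60 in log2 (permutation test, adjusted p = 0.0032). The step to DIV5 missed the threshold in 3 alternatives given with the other processing choices. This fall was seen in the BDNF arms, where the ratio was 0.103 to 0.218 at DIV3 and 0.0365 to 0.0897 at DIV5. Without BDNF the ranges overlapped, at 0.0463 to 0.0687 on DIV3 and 0.0363 to 0.0906 on DIV5. From E15 to SC at DIV3 the ratio was 3.41-fold higher, with p = 0.1, the smallest that 2 against 3 libraries can reach in an exact permutation test; with 1 TPM added to both genes the log2 difference was 0.56 in place of 1.77. Without the 4 DIV10 libraries of low Mki67 the rise from DIV5 to DIV10 was 1.46 in log2 (permutation test, adjusted p = 9.8e-05). Those 4 had ratios of 0.104, 0.125, 0.114 and 0.118, and the other 8 had 0.117 to 0.273.

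Grin2d, the early and interneuron-associated GluN2 subunit, was 6.41 and 10.9 TPM in E15 cortex. In SC libraries without BDNF it was 14.4, 12.1 and 6.04 TPM at DIV3, 39.3, 28.1, 9.24 and 17.7 TPM at DIV5, and 22.7, 20.3 and 14.8 TPM at DIV10. The lowest library at DIV5 was within the DIV3 range, and the highest was above it. Over the 4 arms Grin2d rose by 0.89 ± 0.23 in log2 from DIV3 to DIV5 (adjusted p = 0.0020) and was 0.63 ± 0.26 higher at DIV10 than at DIV3 (adjusted p = 0.0285). The second call was lost without any 1 of 4 libraries, with adjusted p between 0.0641 (without SC 3 at DIV3) and 0.102 (without paxillin siRNA with BDNF 11 at DIV10), the others being SC with BDNF 1 at DIV10 (0.0788) and SC with BDNF 3 at DIV3 (0.0695). The summed GABAergic neuron markers were 198 to 1330 TPM at DIV3 and 490 to 2844 TPM at DIV5, and their part in the Grin2d level was not tested.

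Grin2c, the cerebellar and glial GluN2 subunit, was 1.204 and 1.81 TPM in E15 cortex and between 0.783 and 5.58 TPM at DIV3. At DIV10 the 12 libraries ran from 0.294 through a median of 2.701 to 16.4 TPM. The log2 change from DIV3 to DIV10 was 0.24 and was not called. The 4 libraries of low Mki67 held 0.294, 0.605, 0.957 and 1.08 TPM and all other DIV10 libraries 1.80 TPM or more, and without those 4 Grin2c was 0.77 ± 0.30 higher at DIV10 than at DIV3 (adjusted p = 0.020).

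As shares of the summed GluN2 TPM, Grin2b gave way mainly to Grin2d. Grin2b made up 56.3 to 84.3% of the GluN2 TPM at DIV3 (median 69.3%), 24.8 to 81.1% at DIV5 (median 52.7%) and 31.1 to 56.1% at DIV10 (median 44.1%). Grin2d went from 8.54 to 32.9% at DIV3 (median 17.2%) to 20.4 to 61.5% at DIV10 (median 40.5%). At DIV10 the libraries of low Mki67 had 61.5% (SC 3), 59.1 and 53.9% (paxillin siRNA 1 and 2) and 42.9% (SC with BDNF 3). The rest of that day had 20.4 to 45.3%. The share of Grin2b fell by 23.9 percentage points from DIV3 to DIV10 and that of Grin2d rose by 20.5 percentage points (permutation tests stratified by arm, adjusted p = 6.0e-05 and 4.0e-04 over 15 tests). Most of both changes had occurred by DIV5, at -17.5 points for Grin2b (adjusted p = 0.0032) and 17.6 points for Grin2d (adjusted p = 4.5e-04). In 3 other settings the Grin2d rise from DIV3 to DIV10 was 14.1 to 25.8 points. Without the libraries of low Mki67 its step from DIV5 to DIV10 was -3.50 points (permutation test, adjusted p = 0.494).

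The share of Grin2a fell by 4.005 percentage points from DIV3 to DIV5 and rose by 3.79 points from DIV5 to DIV10 (both adjusted p = 6.0e-05, permutation tests), with a net difference of -0.21 points (adjusted p = 0.878). With BDNF the Grin2a share was 7.35 to 14.1% at DIV3 and 1.35 to 5.42% at DIV5. Without BDNF the ranges overlapped, at 3.25 to 4.77% and 2.28 to 5.51%. The share of Grin2c differed by 3.57 points between DIV3 and DIV10 (adjusted p = 0.0695). Without the DIV10 libraries of low Mki67 that difference was 6.16 points (permutation test, adjusted p = 0.0024). Grin1 relative to the summed GluN2 TPM rose 2.02-fold from DIV5 to DIV10 (permutation test, adjusted p = 6.0e-05), from a median of 3.12 to 6.67, after a difference of -0.15 in log2 from DIV3 to DIV5 (adjusted p = 0.356).

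**Figure D3:**
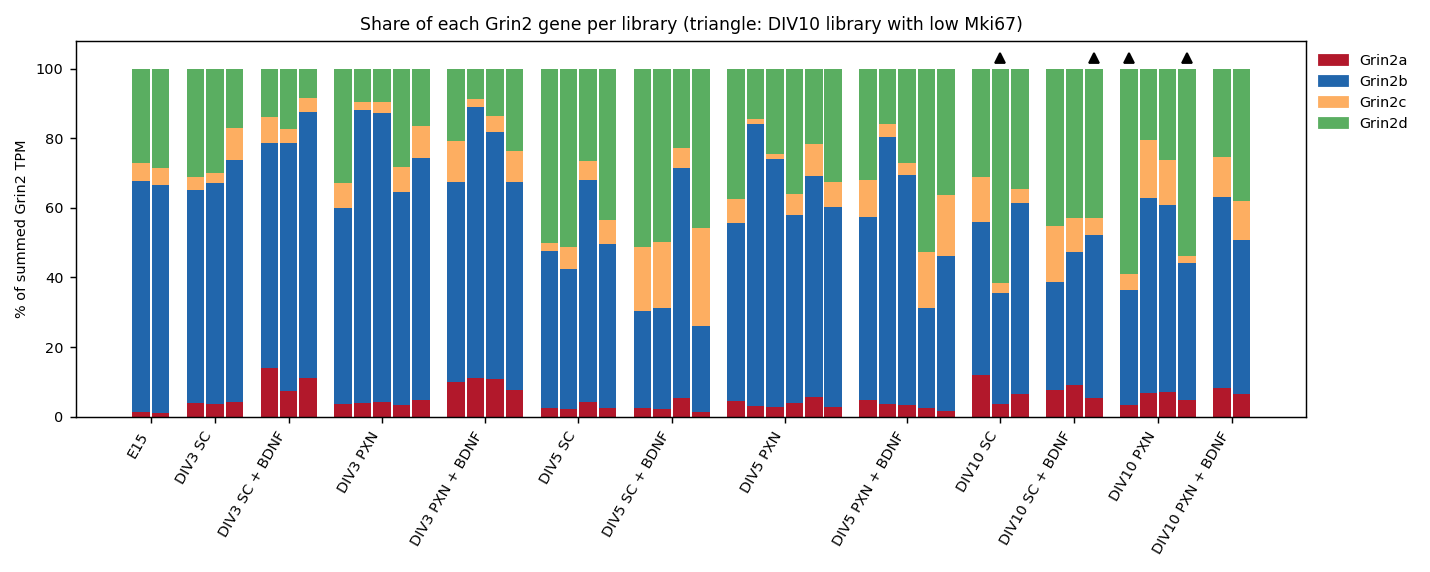
Share of Grin2a, Grin2b, Grin2c and Grin2d in the summed GluN2 TPM, in percent on an axis from 0, for each E15 and culture library as a stacked bar, with triangles over the 4 DIV10 libraries of low Mki67. The Grin2b share has a median of 69.3% at DIV3 and 44.1% at DIV10, and the Grin2d share 17.2% and 40.5%.

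Grin3a, the GluN3A subunit of juvenile synapses, was 3.70 and 7.76 TPM in E15 cortex, and its lowest, median and highest libraries were 1.80, 3.71 and 10.4 TPM at DIV3, 1.47, 3.69 and 8.67 TPM at DIV5 and 0.270, 3.93 and 8.82 TPM at DIV10. No step between days was called, with log2 differences of -0.02 and -0.28. At DIV10 the libraries fell into separate ranges, 0.270, 0.316, 0.603 and 0.793 TPM in the 4 of low Mki67 and 3.17 to 8.82 TPM in the other 8. Grin3b, the other GluN3 gene, was 1.04 to 9.05 TPM in the cultures, with no called step from DIV3 to DIV10.

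BDNF, the ligand of the receptor kinase TrkB, called 1 member, Grin2a, and on 1 day, DIV3. In SC libraries at DIV3 Grin2a was 1.84, 1.43 and 1.51 TPM without BDNF and 8.49, 4.24 and 4.39 TPM with it. Under paxillin siRNA it was 1.39, 1.31, 1.61, 1.44 and 1.74 TPM without BDNF and 4.65, 5.08, 4.77 and 3.21 TPM with it. The ranges did not overlap in either siRNA arm, with the lowest BDNF library, 3.21 TPM, above the highest of the others, 1.84 TPM.

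Under paxillin siRNA the rise of Grin2a with BDNF at DIV3 was 1.11 ± 0.30 in log2 (adjusted p = 0.0362 by limma), 1 of 6 members called against 2.14% of all genes. In SC the difference was 1.32 ± 0.36 (adjusted p = 0.0602), 0 of 6 members against 1.21%, with 1 member, Grin2a, at an unadjusted p under 0.05 on that day. The call under paxillin siRNA was lost without any of 8 of the 9 libraries compared, the exception being paxillin siRNA with BDNF 2, with adjusted p from 0.0592 to 0.134 and log2 differences from 1.05 to 1.14. It was also lost without cultures 10 and 11, at 0.95 (adjusted p = 0.884), with a pseudocount of 0.1 (adjusted p = 0.0581) and without a filter on low values (adjusted p = 0.0562). The call in SC was gained without SC 1, SC 3, SC with BDNF 1 or SC with BDNF 3 at DIV10 (adjusted p = 0.0216, 0.0316, 0.0423 and 0.0215), and both were past the threshold without the 4 DIV10 libraries of low Mki67 (adjusted p = 0.0021 in SC and 0.0010 under paxillin siRNA). Summed neuron markers were 3494 to 4512 TPM without and 3459 to 3633 TPM with BDNF in the SC libraries, and relative to them Grin2a rose by 1.205 in SC (adjusted p = 0.0479). The difference of the BDNF effect between the siRNA arms at DIV3 was -0.21 ± 0.47 (adjusted p = 1), an interval too wide to show that the arms responded alike.

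At DIV5 the same comparison for Grin2a gave -0.23 ± 0.32 in SC and -0.25 ± 0.27 under paxillin siRNA, with 1.98, 1.25, 1.43 and 0.973 TPM without and 1.22, 0.986, 1.46 and 0.549 TPM with BDNF in SC. The difference between DIV3 and DIV5 in the BDNF effect, over both siRNA arms, was 1.45 ± 0.31 for Grin2a (adjusted p = 0.0066 by limma, a test added after the values were seen); without cultures 10 and 11 it was 1.46 (adjusted p = 0.0877). Grin2a was the 1 member called in this test, against 1.87% of all genes, while Grin2b had 0.94 ± 0.33 (adjusted p = 0.152). At DIV10 the Grin2a difference with BDNF was 0.21 ± 0.36 in SC and 0.39 ± 0.39 under paxillin siRNA. Under paxillin siRNA the DIV10 BDNF libraries, numbers 10 and 11, held 1.68 and 1.81 TPM. Without BDNF, numbers 10 and 11 held 1.47 and 2.01 TPM, and numbers 1 and 2, both of low Mki67, held 0.448 and 0.757 TPM.

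**Figure D4:**
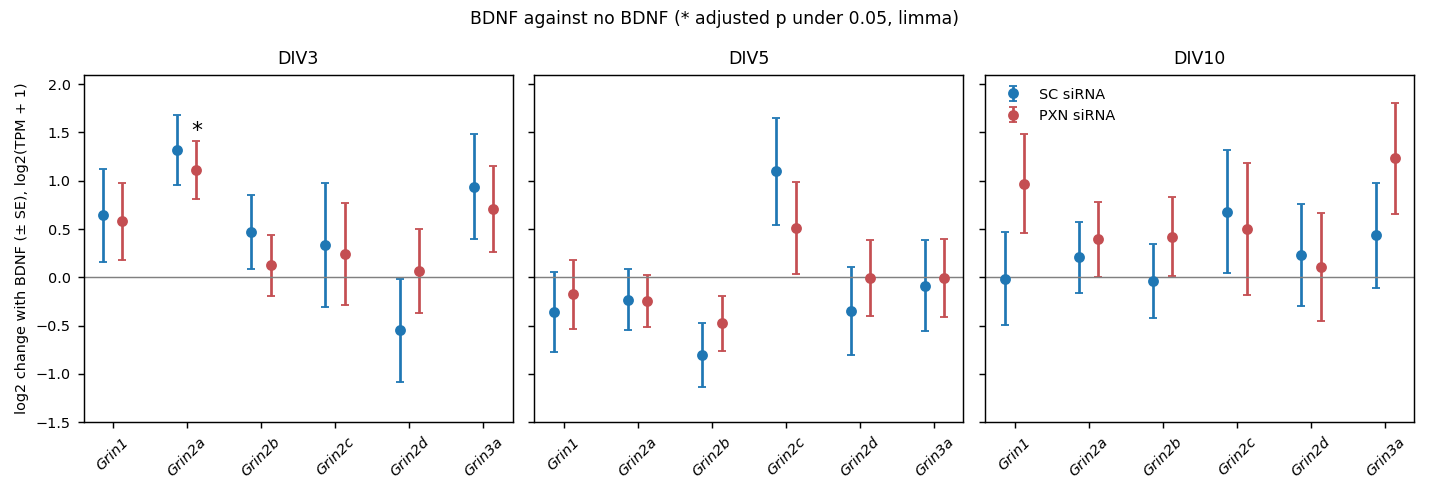
Log2 difference with BDNF for each of the 6 genes in SC and paxillin siRNA libraries at DIV3, DIV5 and DIV10, from the limma fit of log2(TPM + 1), with bars of 1 SE and an asterisk where the adjusted p was under 0.05. Grin2a at DIV3 stands at 1.32 in SC and 1.11 under paxillin siRNA, and at DIV5 it is -0.23 and -0.25.

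Of the other members at DIV3 with BDNF, Grin3a differed by 0.94 ± 0.55 in SC and 0.71 ± 0.45 under paxillin siRNA, Grin1 by 0.64 ± 0.48 and 0.58 ± 0.40, and Grin2b by 0.47 ± 0.38 and 0.13 ± 0.32, and none of these passed the threshold. At DIV5 in SC, Grin2b was 35.5, 21.99, 22.3 and 19.1 TPM without BDNF and 13.7, 12.9, 17.8 and 10.0 TPM with it, so that the ranges did not overlap, yet the log2 difference of -0.80 ± 0.33 had an adjusted p of 0.458 where 0.0491% of all genes were called. Grin2c in the same libraries was 1.79, 3.52, 1.97 and 2.82 TPM without and 8.91, 8.48, 1.57 and 11.4 TPM with BDNF (1.10 ± 0.56, adjusted p = 0.582), with SC with BDNF 3 apart from the other three. At DIV10 BDNF called 0 of 6 members in SC by limma, where 0% of all genes were called and 352 genes had an unadjusted p under 0.05, and 0 of 6 under paxillin siRNA against 0.014%.

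The ratio of Grin2a to Grin2b was higher with BDNF as well. Over all days and both siRNA arms it was 1.54-fold higher with BDNF (0.62 in log2, permutation test stratified by day and siRNA, adjusted p = 0.0011). By day, in tests added after the values were seen, it was 2.55-fold higher at DIV3 (exact permutation test, p = 3.97e-04, adjusted p = 0.0017), 1.15-fold higher at DIV5 (exact permutation test, p = 0.319) and 1.24-fold higher at DIV10 (exact permutation test, p = 0.177). Within single arms at DIV3 the log2 difference was 1.42 under paxillin siRNA (exact permutation test, p = 0.0079, adjusted p = 0.095 over 12 tests) and 1.28 in SC (p = 0.1, the smallest that 3 against 3 allow in the exact permutation test). The difference between days was not tested for the ratio.

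Few other genes of glutamate signalling were called with BDNF at DIV3, and those named here were chosen after their values were seen. In SC 2 of 15 AMPA receptor genes rose, 2 of 15 scaffolds, 1 of 17 trafficking and modifying enzymes and 1 of 9 co-agonist genes, where 1.21% of all genes were called. Under paxillin siRNA it was 1 of 15, 1 of 15, 1 of 17 and 1 of 9, against 2.14%. None of these genes was called lower, and no gene was called among 6 kainate and delta receptor genes or 7 transcription regulators. Gria3, an AMPA receptor subunit, rose by 1.21 in log2 (adjusted p = 0.0266) and Homer1, a scaffold, by 1.11 (adjusted p = 0.0328), both in SC. Shisa9, an AMPA receptor auxiliary protein, rose by 1.12 in SC and 1.00 under paxillin siRNA (adjusted p = 0.0145 and 0.0038). Dlg4, which encodes the scaffold PSD-95 that anchors NMDA receptors, rose by 0.77 in SC (adjusted p = 0.0451) and by 0.89 under paxillin siRNA (adjusted p = 0.0011). Prkcb, a protein kinase C isoform, rose by 1.31 and 1.00 (adjusted p = 5.9e-04 and 0.0011), and Psph, an enzyme of serine synthesis, by 1.10 and 0.80 (adjusted p = 0.0022 and 0.0060).

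In the fit of all groups paxillin siRNA called no member on any day, with or without BDNF; other settings that gave calls at DIV10 follow and stand with the other processing choices. In the libraries without BDNF, 0 of 6 members were called at DIV3 where 0% of all genes were called by limma, 0 of 6 at DIV5 against 6.18% and 0 of 6 at DIV10 against 2.58%; of these 18 tests, 4 had an unadjusted p under 0.05, all at DIV10. With BDNF it was 0 of 6 at DIV3 against 0%, at DIV5 against 0.596% and at DIV10 against 0.0211%, with 2 of 18 tests at an unadjusted p under 0.05.

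The DIV10 libraries without BDNF gave the lowest p-values. Grin1 was 517, 169 and 289 TPM with SC siRNA and 36.7, 68.3, 167 and 231 TPM with paxillin siRNA, a log2 difference of -1.55 ± 0.45 (adjusted p = 0.0520). Grin2b was 32.1, 10.6 and 23.5 TPM with SC siRNA and 4.29, 6.05, 12.4 and 15.01 TPM with paxillin siRNA (-1.15 ± 0.36, adjusted p = 0.0611). For both genes the groups overlapped, because SC 3 lay within the paxillin siRNA range.

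Grin2d was 22.7, 20.3 and 14.8 TPM with SC siRNA and 7.70, 8.29, 4.51 and 7.32 TPM with paxillin siRNA, with no overlap (-1.36 ± 0.49, adjusted p = 0.0929). Grin2a differed by -1.05 ± 0.34 (adjusted p = 0.0685), Grin3a by -0.73 and Grin2c by -0.57. Pxn itself differed by 0.19 ± 0.21 between these groups (adjusted p = 0.609), so the libraries labelled paxillin siRNA did not show the reduction their label names at this day.

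These near-calls rested on which libraries entered. Leaving out cultures 10 and 11, which exist only in the paxillin siRNA arms, called Grin1 (-2.52, adjusted p = 5.6e-04), Grin2a (-1.44, adjusted p = 0.0153) and Grin2b (-1.79, adjusted p = 0.0015). In that setting 5249 of all 14239 genes tested were called at DIV10, against 367 of 14250 in the fit of all libraries. The 2 paxillin siRNA libraries that then remain, numbers 1 and 2, are both of low Mki67, against 1 of 3 in SC. Without the 4 libraries of low Mki67 the difference of Grin1 was -0.97 (adjusted p = 0.315) and that of Grin2b -0.96 (adjusted p = 0.228). The part of this split in the siRNA difference was not tested beyond these values.

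Leaving out single libraries also gave calls. Grin1 was called without paxillin siRNA 10 (adjusted p = 0.0163), paxillin siRNA 11 (0.0084) or SC 3 (0.0121) at DIV10, and without any of 6 libraries outside the comparison (0.0306 to 0.0498). Summed neuron markers were 719 to 2821 TPM with paxillin siRNA and 1830 to 3802 TPM with SC siRNA in these groups, and relative to those markers Grin1 differed by -0.83 (adjusted p = 0.0496) and Grin2a and Grin2b by -0.33 and -0.43 (adjusted p = 0.331 and 0.113). The test of the siRNA difference at DIV10 against that at DIV3 called 0 of 6 members against 0.0281% of all genes, and the largest value was -1.17 ± 0.52 for Grin2d (adjusted p = 0.541); without the 4 libraries of low Mki67, Grin2a was called at -1.14 (adjusted p = 0.0211). The Grin2a to Grin2b ratio differed with paxillin siRNA by -0.19 in log2 over all days and both BDNF arms (permutation test, p = 0.134), and exact permutation tests on single days gave p of 0.302 or more.

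Genes that work with NMDA receptors were taken from lists written from general knowledge. From DIV3 to DIV10, 2 rose and 5 fell of 15 AMPA receptor genes, with a median log2 change of -0.11 beside -0.07 for all genes; 68% of all genes were called in this comparison, and the counts of each list here are to be read against that share. Cacng3, an AMPA receptor auxiliary subunit, rose by 1.3 and Shisa7, an auxiliary protein, fell by 1.05. Of 6 tested kainate and delta receptor genes 2 fell, Neto2 by 1.12 and Grik2 by 0.31. Among 15 postsynaptic scaffolds 4 rose and 6 fell (median -0.11), with Dlgap3 higher by 1.59 and Homer1 lower, by a log2 change of -1.33.

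Of 17 trafficking and modifying enzymes 5 rose and 8 fell (median -0.15), among them Lin7b, which rose by 1.28. Of 9 co-agonist genes 5 rose and 1 fell, with a median of 0.45. Among them Phgdh, the first enzyme of serine synthesis, rose by 0.80, and Slc7a10, a D-serine transporter, by 0.69; the astrocyte markers that rose over the same days are given above, and their part in these changes was not tested. Of 7 transcription regulators of subunit genes 1 rose and 5 fell (median -0.61), led by Tbr1 (-1.95), a cortical neuron factor known to act on Grin2b, and Mef2c (-1.38).

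Across the 13 group means of log2(TPM + 1), the genes whose pattern was most like that of Grin2a were Smim7 (Pearson r = 0.953), Rims4 (0.944), Sort1 (0.920), Slc2a3 (0.919) and Galnt11 (0.908). For Grin2b they were Slitrk1 (0.979), Pcdha7 (0.974), Shisa7 (0.965), Tenm1 (0.965) and Pcdha5 (0.962). Among the members Grin2a was most like Grin1 (0.818), and Grin2b and Grin2a reached 0.468. The 13 means share the same days and cultures, so these values only describe likeness.

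In the hippocampus Grin2a had the largest called change with age, upward, and Grin3a was called downward. Grin2a measured 131 to 161 reads per 1000000 of the library (CPM) in the 4 libraries at P10, 284, 315, 360 and 415 CPM at P15 and 413, 432, 572 and 693 CPM at P21. The P10 libraries lay below all others, and the P15 and P21 ranges met at 413 and 415 CPM. Grin2a rose by 1.3 ± 0.21 in log2 from P10 to P15 (adjusted p = 0.0074 by edgeR) and by 1.87 ± 0.21 from P10 to P21 (adjusted p = 3.8e-04), the step from P15 to P21 being 0.57 ± 0.21 (adjusted p = 0.321). Both calls held without each of the 12 libraries in turn.

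The makeup of the tissue markers differed between these ages too. From P10 to P21 all 7 oligodendrocyte markers, 4 of 9 astrocyte, 2 of 5 GABAergic and 1 of 5 tested microglial markers rose, 6 of 7 tested dividing cell markers fell, and of 8 neuron markers 1 rose and 2 fell. The summed oligodendrocyte markers were 299 to 422 CPM at P10 and 4354 to 7366 CPM at P21, and the summed excitatory neuron markers 2458 to 2902 and 2870 to 4757 CPM. All 3 tested red blood cell markers rose as well. The part of these markers in the changes of the members was not tested.

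Thus 1 of 6 members was called from P10 to P15, against 5.86% of 13557 genes tested, 0 of 6 from P15 to P21, against 0.162%, and 2 of 6 from P10 to P21, against 15.7%. Within 1 genotype, with 2 libraries at each age, 0 members were called, and the Grin2a change from P10 to P21 was 1.84 in controls (adjusted p = 0.183) and 1.90 in S119A (adjusted p = 0.152).

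**Figure D5:**
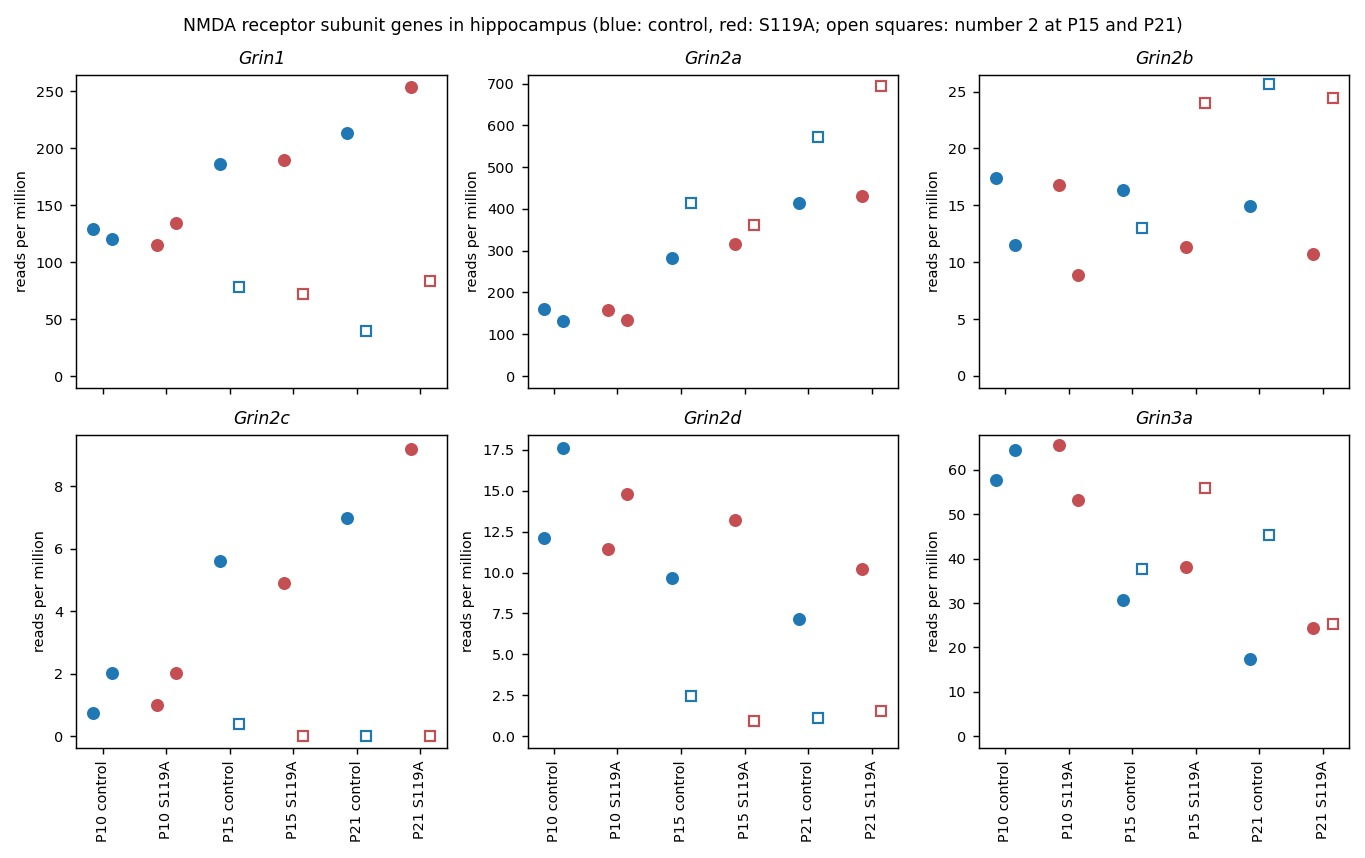
Reads per 1000000 of the library (CPM) of the 6 genes in the 12 hippocampus libraries at P10, P15 and P21, 1 point per library, controls in blue, S119A in red and the 4 libraries numbered 2 at P15 and P21 as open squares. Grin2a climbs from 131 to 161 CPM at P10 to 413 to 693 CPM at P21, and Grin1, Grin2c and Grin2d are low in the 4 marked libraries.

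Grin3a was 287 to 352 reads (53.1 to 65.6 CPM) at P10, 174 to 201 reads at P15 and 87 to 161 reads (17.4 to 45.4 CPM) at P21. It fell by 1.07 ± 0.32 in log2 from P10 to P21 (adjusted p = 0.0470). That call missed the threshold without any of 8 single libraries (adjusted p = 0.0555 to 0.131), while without all 4 libraries that stood apart the fall was 1.53 ± 0.16 (adjusted p = 1.7e-06). All P21 libraries were below all P10 libraries on the CPM scale. Grin3b had 0 to 2 reads per library, at or under the floor of 3 reads.

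Grin2b gave few reads, 43 to 113 per library, with 8.89 to 17.4 CPM at P10, 11.4 to 24.0 CPM at P15 and 10.7 to 25.7 CPM at P21. These ranges overlapped at every age, and the log2 change from P10 to P21 was 0.49 ± 0.37 (adjusted p = 0.405); it turned to -0.08 without the 4 libraries. Reads of a gene are not divided by its length here, and the annotated transcript used is 24060 bases for Grin2b and 14634 for Grin2a, so the level of Grin2a against Grin2b is not read from them.

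The ratio of Grin2a to Grin2b reads was lower at P10 than at P21 in every library, although its tests did not pass after adjustment. It was 9.21 and 11.3 in controls and 9.36 and 15.1 in S119A at P10, 17.3 and 31.9 in controls and 27.8 and 15 in S119A at P15, and 27.6 and 22.3 in controls and 40.4 and 28.4 in S119A at P21. P10 and P15 met at 15.1 and 15, and P15 and P21 overlapped. From P10 to P21 the ratio was 2.63-fold higher (exact permutation test, p = 0.0286, the smallest that 4 against 4 can give, adjusted p = 0.0619), from P10 to P15 it was 1.99-fold higher (exact permutation test, p = 0.0571), and from P15 to P21 1.32-fold higher (exact permutation test, p = 0.257). The 4 libraries that stood apart had 31.9, 15, 22.3 and 28.4, and the other 4 of the same ages 17.3, 27.8, 27.6 and 40.4, so the ratio overlapped between them. Culture ratios of TPM and hippocampus ratios of reads are on different scales and were not compared.

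For Grin1, Grin2c and Grin2d the 4 libraries differed most from the rest. Grin1 was 115 to 135 CPM at P10; at P15 it was 186 and 190 CPM in the libraries numbered 1 and 77.99 and 71.8 CPM in those numbered 2, and at P21 it was 213 and 254 CPM against 39.5 and 83.3 CPM. Grin2c had 4 to 11 reads at P10, 26 to 37 reads in the later libraries numbered 1 and 0 to 2 reads in those numbered 2, where 0 reads allow up to 3. Grin2d had 58 to 96 reads at P10, 36 to 70 in the later libraries numbered 1 and 3 to 12 in those numbered 2. The 2 ranges at P15 and P21 did not overlap for any of the 3 genes.

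Over all 12 libraries the log2 change from P10 to P21 was 0.22 ± 0.51 for Grin1, 1.47 ± 1.23 for Grin2c and -1.49 ± 0.75 for Grin2d, none of them called. Without the 4 libraries Grin1 rose by 0.91 ± 0.10 (adjusted p = 3.9e-06), Grin2c rose by 2.46 ± 0.36 (adjusted p = 5.7e-05) and Grin2d fell by 0.70 ± 0.24 (adjusted p = 0.0329). With Grin2a, which rose by 1.55, and Grin3a, 5 of 6 members were then called, against 34.9% of 13738 genes, and Grin2b was the exception. From P10 to P15 there were 4 of 6 against 16.7%, and from P15 to P21 there were 2 of 6 against 3.15%, Grin2a (0.49 ± 0.12, adjusted p = 0.0365) and Grin3a (-0.73 ± 0.18, adjusted p = 0.0389).

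With a term for the 4 libraries in the model, that term was -5.42 ± 0.62 in log2 for Grin2c, -2.56 ± 0.30 for Grin2d and -1.56 ± 0.16 for Grin1, and 0.56 ± 0.10 for Grin2a, 0.68 ± 0.20 for Grin3a and 0.76 ± 0.25 for Grin2b, all past the threshold, where 47.0% of all genes were. In this model 4 of 6 members were called from P10 to P15 against 12.9% of all genes, 1 from P15 to P21 against 7.7% and 5 from P10 to P21 against 29.6%. The 3 genes with negative terms are those with the highest share of G and C in the coding sequence, 67.3, 62.4 and 55.6%, and the order of the terms does not follow it exactly, since Grin2c had a larger term than Grin2d. The exon 1 window of Grin3a, printed above with 81.7% G and C, belongs to a gene with a positive term. The part of base composition in these reads was not tested.

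The S119A genotype called no member. Over the 3 ages the log2 difference between S119A and control ran from -0.09 ± 0.30 for Grin2b to 0.13 ± 0.61 for Grin2d (adjusted p = 0.99997 by edgeR), with 0% of all genes called by edgeR, 126 genes at an unadjusted p under 0.05 and 0 genes by DESeq2. The values for Grin1, Grin2a, Grin2c and Grin3a were 0.11 ± 0.42, -0.01 ± 0.17, 0.06 ± 0.98 and -0.03 ± 0.26. For Grin2a an interval of 2 SE around this value is narrow beside its rise with age. For Grin2c and Grin2d the spread between libraries leaves large differences undetectable in this fit. With a term for the 4 libraries that stood apart, the genotype difference was 0.04 ± 0.20 for Grin2d, 0.03 ± 0.35 for Grin2c and 0.13 ± 0.13 for Grin1. The change from P10 to P21 differed between genotypes by 0.06 ± 0.47 for Grin2a, and 0 of 6 members were called against 0% of all genes. The ratio of Grin2a to Grin2b was 1.11-fold higher in S119A (exact permutation test within ages, p = 0.519). Without the 4 libraries that stood apart its log2 difference was 0.48 in place of 0.15.

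Around the receptor, 3 of 16 AMPA receptor genes rose and 1 fell from P10 to P21 (median -0.11 beside 0.00 for all genes), in a comparison that called 15.7% of all genes, with Cacng3 higher by 1.71 (adjusted p = 0.0031) and Cacng4 at -1.36 (adjusted p = 0.0015). Cacng3 thus rose with age in the hippocampus as it did with days in culture. Of 15 scaffolds 3 rose and 1 fell (median 0.26), Dlg4 by 0.76 (adjusted p = 0.0486) and Dlg2 by -0.86 (adjusted p = 0.0160), and without the 4 libraries 10 of 16 rose and 1 fell, where 34.9% of all genes were called. Among 17 trafficking enzymes 1 rose and 2 fell (median 0.11), with Ptpn5, the phosphatase STEP that acts on GluN2B, at -1.64 (adjusted p = 0.0057) and Prkca at 0.99 (adjusted p = 0.0012). Of 9 co-agonist genes Psat1 rose by 0.49 and Slc1a4, a neutral amino acid transporter, fell by 1.26, and none of 9 kainate and delta receptor genes or 6 transcription regulators was called.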

How the data were processed

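For 48 libraries of cortical cultures and E15 cortex the authors aligned SureSelect XT HS2 paired-end reads to GRCm38 with STAR 2.7.10, estimated abundance with RSEM 1.3.3 and deposited TPM per gene, which sum to 1000000 in each library and hold no depth. For 12 hippocampus libraries the authors aligned amplified Nanopore cDNA reads to mm10 with minimap2, and deposited IsoQuant read counts for 122459 transcripts; these were summed per gene through RefSeq accessions (119252 matched with version, 1 without, 3206 kept under their own ID). Reads are amplified cDNA, so floors (3 reads) cover counting error only.

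TPM were tested as log2(TPM + 1), a scale that understates changes of low genes, with limma 3.58.1 (trend) in 1 fit of 13 groups over the 14250 genes whose mean reached 1 TPM. Counts were tested with edgeR 4.0.16 (TMM, filterByExpr, quasi-likelihood, age and genotype as terms) over 13557 genes, and with DESeq2 1.42.0 as an alternative. Adjusted p-values are Benjamini-Hochberg over all genes, with a threshold of 0.05. Log ratios and shares were compared by 2-sided exact permutation tests, or 100000 resamples where stratified (Python 3.11.15, numpy 2.4.6). Hippocampus ratios were taken from reads, with 0.5 reads added as an alternative. The steps were tested on simulated data.

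Named genes are the members, Grin3b, Pxn, the 2 largest called changes per list (DIV3 to DIV10, P10 to P21) and the 5 genes most like Grin2a and Grin2b. A gene that this rule names is not reported here. The members and lists were chosen with earlier results of these data known. Low-Mki67 libraries (under 10 TPM) and terms for library series were alternatives chosen after seeing the data, as were the BDNF tests by day. Groups come from the labels. Equal library numbers were not treated as pairs, since not every pair of deviations correlated over 0.1.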

Additional observations from a re-analysis of the deposited data

Results flagged for a closer look

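The Grin2c level of SC with BDNF 3 at DIV5 was 1.57 TPM (1.566), while the other 3 libraries of its group held 8.48 to 11.4 TPM, a gap that takes up most of the range of the group. This was the only 1 of 49 groups and measures in which a library was this far from the rest, and chance gives about 1 in 20. The same library also had the lowest Grin3a (1.58 TPM) and Grin2d (6.13 TPM) of its group.

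The effect of BDNF on Grin2a differed between days. It was larger at DIV3 than at DIV5 by 1.45 (1.453) in log2 over both siRNA arms, with an adjusted p of 0.0066 by limma, and it was 1.46 without cultures 10 and 11 (adjusted p = 0.0877). This test was added after the values were seen.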

How the results depend on the processing

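The direction and the side of the threshold were kept in 167 of the comparisons of main results under other settings, and 31 counts or values moved, 6 turned sign, 3 dropped below and 2 passed the threshold. Of the settings for single genes, 145 kept their call, 23 gained it, 16 lost it and 2 turned sign.

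Counts of members called were as follows. From E15 to DIV3, 0 were called, but 1 with a pseudocount of 0.1, 2 with only the groups compared, 2 with a term for library series and 2 without the DIV10 libraries of low Mki67. From DIV3 to DIV10, 4 were called without those libraries. With paxillin siRNA and no BDNF, 0 of 18 tests were called, but 1 relative to neuron markers, 6 with the library number as a replicate block, 3 without cultures 10 and 11 and 7 with the series term, all lower; with the block Grin1, Grin2a, Grin2b and Grin2d were -1.94, -1.29, -1.45 and -1.64 at DIV10 (adjusted p = 0.0070, 0.0182, 0.0075 and 0.0013). Over all genes at DIV10 without BDNF, 367 of 14250 were called in the main fit and 5086 relative to neuron markers. With the block it was 2726, with the series term 4768, and without cultures 10 and 11 it was 5249 of 14239. At DIV5 it was 880 in the main fit, 3233 with the block and 3027 with the series term. With BDNF present, 1 member test was called with the replicate block and 1 without the libraries of low Mki67. BDNF in SC called 0, but 1 relative to neuron markers, 1 with the replicate block, 1 with the series term and 1 without the libraries of low Mki67. Under paxillin siRNA BDNF called 1 member, 0 with a pseudocount of 0.1, 0 without a filter and 2 with only the groups compared. The siRNA difference between DIV10 and DIV3 called 1 member with the block and 1 without the libraries of low Mki67. Over all genes these settings called 208 of 14250 and 411 of 14220.

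In the hippocampus P10 to P15 called 1 member, 4 with a term for the 4 libraries, 4 without them and 0 in controls or S119A alone; P15 to P21 called 0, 1 and 2; P10 to P21 called 2, but 1 with RLE size factors, 5 and 5 with the term or without the 4, and 0 in controls or S119A alone. Grin1 from P10 to P21 was -0.11 with the replicate block, and Grin2b was -0.080 without the 4 libraries.

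Grin1 from DIV5 to DIV10 was 0.32 with the block (adjusted p = 0.173). The Grin2a to Grin2b ratio from DIV3 to DIV5 was -0.25 with a pseudocount of 1, -0.46 with the block and -0.52 without cultures 10 and 11 (adjusted p = 0.0797, 0.0609 and 0.0509). The Grin2a share from DIV3 to DIV10 was 0.12 points without cultures 10 and 11 and 0.84 without the libraries of low Mki67. The Grin2c share from DIV5 to DIV10 was 2.88 with the block and 2.25 without the libraries of low Mki67, and from DIV3 to DIV10 it was 6.16 without them. The Grin2b share from DIV5 to DIV10 was -14.5 with the block, the Grin2d share -3.50 without the libraries of low Mki67, and Grin1 against GluN2 from DIV3 to DIV5 0.015 with the block. The cause was not tested.

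Leaving out 1 library at a time gave 1 to 3 members called from DIV3 to DIV10, 0 to 3 for paxillin siRNA without BDNF, 0 to 1 for BDNF in SC, 0 to 1 for BDNF under paxillin siRNA and 1 to 2 from P10 to P21. It gave Grin1 from P10 to P21 as -0.17 to 0.54, the Grin2a share from DIV3 to DIV10 as -0.80 to 0.25 points, and the Grin2c share as 3.06 to 4.92 points from DIV3 to DIV5, -1.35 to 0.51 from DIV5 to DIV10 and 2.78 to 4.23 from DIV3 to DIV10. No E15 result with a block and no DIV10 comparison of paxillin siRNA with BDNF without cultures 10 and 11 could be fitted, and deviations of equally numbered libraries correlated over 0.1 in 43 of 47 culture pairs (median 0.44, lowest -0.55) and in 6 of 15 hippocampus pairs. Of 45 culture libraries 39 were closest to a library of their own number, a hint from the data only. TPM hold no depth, and few reads limit Grin2c, Grin2d and Grin3b in the hippocampus libraries numbered 2.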
